A study of Mus musculus with 8 samples.

Results

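The normal course of an osteogenic culture was followed by comparing 2 control libraries of day 14 with 2 control libraries of day 7. These are 4 of the 8 libraries of the series, chosen by their labels alone. All 4 held total RNA of mouse cells kept in osteogenic medium with ascorbic acid, dexamethasone and β-glycerophosphate and given DMSO, the vehicle, so the glucocorticoid dexamethasone was present at both time points. The other 4 libraries, 2 of day 7 and 2 of day 14, came from the same medium with locamidazole (LAMZ) at 1 μM, the compound under study, and serve here to estimate the spread and as a second time course. The labels name the cells as MC3T3-E1, a clonal osteoblastic line from mouse calvaria, whereas the methods name cultured calvarial cells of neonatal mice, which are a mixed population. Nothing says whether the libraries of a day came from separate cultures, so p values measure the spread between these libraries, which may be technical.

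Osteoblasts arise from mesenchymal progenitors under the transcription factors Runx2 and Osterix (Sp7). In culture the progenitors first divide, then lay down type I collagen, raise alkaline phosphatase and at last mineralize the matrix, when osteocalcin (Bglap) and proteins of the osteocyte such as Dmp1 appear. Ascorbic acid is needed for the folding of collagen, and β-glycerophosphate supplies phosphate for the mineral.

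The values are RPKM, reads scaled to gene length and to the mapped reads of a library. The smallest values gave back a depth of 3463300 to 5370500 mapped reads for the control libraries. Replicates differed by a median of 0.199 on the log2 scale at day 7 and 0.179 at day 14 in control, and by 0.152 and 0.159 in LAMZ. With 2 libraries against 2, an exact permutation test of one gene cannot give a p below 0.333. Differences were therefore judged by limma across all genes and all 8 libraries on log2(RPKM + 1), a scale that understates the change of genes with low values. A gene with an adjusted p under 0.05 is said to have risen or fallen, and values in brackets are the log2 fold change ± its standard error from the fit. Days that do not overlap are described only, as the exact permutation test gives them a p of 0.333. Their share over all genes is not given, so they add little to a call.

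Of 12514 genes tested, 308 rose (2.46%) and 300 fell (2.40%) from day 7 to day 14, 608 in all (4.86%). The median fold change of all genes was −0.05 on the log2 scale, the median size of the called changes was 0.90, and 562 of the called genes were protein-coding. A limma fit of the 4 control libraries by themselves called 0 genes, with 2184 at an unadjusted p under 0.05, against 2727 in the fit of all 8, so the calls rest on a spread shared with the LAMZ libraries. Replicates differed less in LAMZ than in control. The shared spread can therefore be too small for control, and the control p values too low. Without replicate 1 of day 7 there were 148 calls, without replicate 2 of day 7 453, without replicate 1 of day 14 69, without replicate 2 of day 14 128, and without any one LAMZ library 277 to 323. Scaling every library to the same sum of RPKM moved the median of all genes to 0.16 and the share of rises among the calls from 50.7% to 85.6% (972 higher and 163 lower). The small RNA gene Rn7s1 held 18.1% to 30.3% of that sum in the control libraries, and its part in the shift was not tested.

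**Figure D1:**
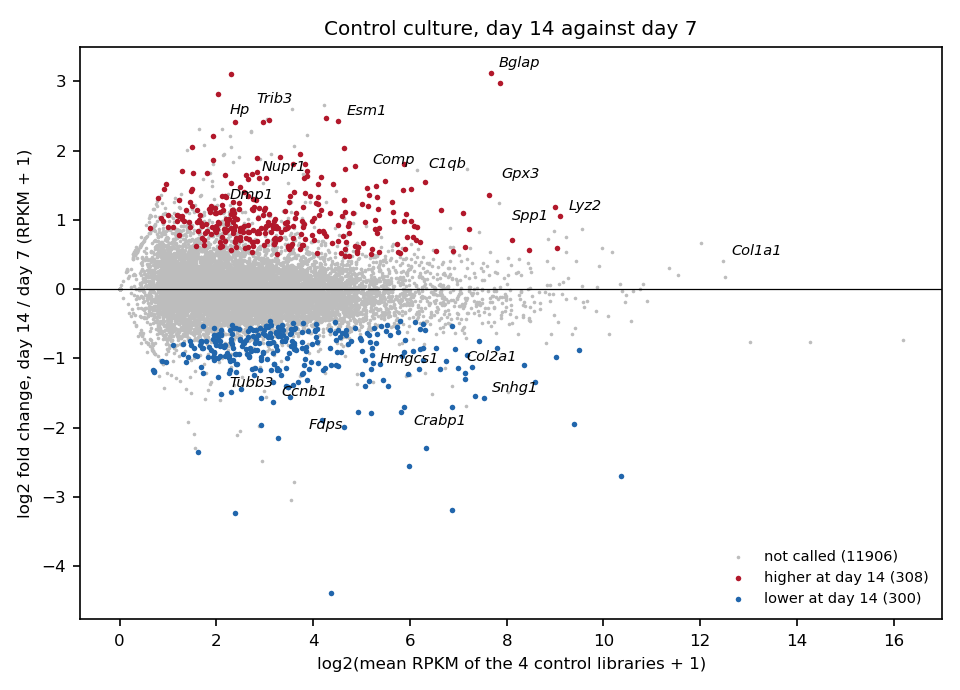
Each point is 1 of 12514 tested genes, placed by log2 of its mean RPKM + 1 over the 4 control libraries (x axis) and its log2 fold change from day 7 to day 14 (y axis). The 308 genes that rose are red and the 300 that fell are blue, and Bglap is the highest of the labelled genes.

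Of the 22 genes of bone matrix proteins tested, 4 rose, Bglap, Bglap2, Dmp1 and Omd. Bglap, the osteocalcin of mineralizing osteoblasts, had RPKM of 22.7 and 70.5 at day 7 and 351 and 364 at day 14. The days were far apart and replicate 1 of day 7 was the lowest (3.12 ± 0.46, adjusted p = 0.0131). Its near copy Bglap2 on the same chromosome, with which reads could be shared, had 26.5 and 95 at day 7 and 376 and 431 at day 14 (2.97 ± 0.48, adjusted p = 0.018). The start of Bglap (RefSeq, GRCm38.p6, chr3:88384417-88384716, minus strand, 250 bases before to 50 after) is shown because it was the largest rise among the named genes. Capitals mark the RUNX core TGTGGT, which lies on the other strand.
Bglap: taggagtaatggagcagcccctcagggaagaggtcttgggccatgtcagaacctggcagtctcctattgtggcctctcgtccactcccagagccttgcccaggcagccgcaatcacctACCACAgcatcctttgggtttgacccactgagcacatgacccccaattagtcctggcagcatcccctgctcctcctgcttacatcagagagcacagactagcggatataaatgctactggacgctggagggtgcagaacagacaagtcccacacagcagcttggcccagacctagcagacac
Searched on both strands, TGTGGT was in 7 of the 21 promoters of the list (33.3%) and in 16.8% of all 32851 promoters in the table. Here and below a match describes these letters only and is no evidence of binding.

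Dmp1, an acidic phosphoprotein of osteocytes, had 5.57 and 8.25 at day 7 and 19.9 and 19 at day 14 (1.39 ± 0.18, adjusted p = 0.0088). Omd, a keratan sulfate proteoglycan of bone, had 9.08 and 8.09 at day 7 and 17.6 and 17.1 at day 14 (0.94 ± 0.15, adjusted p = 0.0156). The days did not overlap for either gene. Spp1 (osteopontin) had 84 and 204 at day 7 and 266 and 361 at day 14 and Alpl (alkaline phosphatase) 37.3 and 63.4 at day 7 and 73.3 and 81.3 at day 14. Both were higher in each day 14 library, but neither passed the test (Spp1 1.24 ± 0.36, adjusted p = 0.0962, and Alpl 0.66 ± 0.24, adjusted p = 0.16). Col1a1, the chief collagen of bone and the most abundant gene of the list, had 4354 and 5451 at day 7 and 6658 and 6220.4 at day 14 (0.40 ± 0.16, adjusted p = 0.207). Its partner chain Col1a2 (0.21 ± 0.14, adjusted p = 0.439), bone sialoprotein Ibsp (0.13 ± 0.14, adjusted p = 0.633) and Phex, a peptidase of phosphate control (0.48 ± 0.16, adjusted p = 0.135), did not pass either. The list had a median log2 fold change of 0.35 beside −0.05 for all genes, and 0 of its genes fell. The share called was 18.2%, beside 4.86% of all tested genes. The calls in this list numbered 3 and 4 without replicate 1 or 2 of day 7 and 0 and 0 without replicate 1 or 2 of day 14.

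Of the osteoblast transcription factors, 17 were tested, 1 rose and 0 fell, with a median log2 fold change of 0.11. The rise was of Dlx3, a homeobox factor, with 2.34 and 3.77 at day 7 and 5.64 and 6.7 at day 14 (0.84 ± 0.18, adjusted p = 0.0457), and it was still called without replicate 2 of day 7 but not without any one of the other 7 libraries. Runx2 had 7.89 and 9.83 at day 7 and 9.4 and 10.6 at day 14 and Sp7 17.7 and 26.4 at day 7 and 23.8 and 25.1 at day 14, and the days overlapped for both (adjusted p of 0.565 and 0.661). Mef2c, a factor of osteocytes, was higher in both day 14 libraries without passing (0.57 ± 0.15, adjusted p = 0.077), and Atf4, the most abundant of the list, had 57.1 and 55.3 at day 7 and 68.9 and 69.3 at day 14 (0.29 ± 0.10, adjusted p = 0.154). Of the phosphate and mineralization genes, 13 were tested, 1 rose and 0 fell, with a median log2 fold change of 0.31. The rise was of Car3, a carbonic anhydrase, with 5.83 and 2.62 at day 7 and 10.8 and 30.1 at day 14 (1.95 ± 0.43, adjusted p = 0.0466), still called without replicate 1 of day 14 but not without any one of the other 7 libraries. Without replicate 1 of day 7 the median of this list was 0.01. In the same list Phospho1, which releases phosphate in matrix vesicles, had 75.4 and 77 at day 7 and 68.6 and 80.9 at day 14. Of the osteocyte markers, 13 were tested, 1 rose and 0 fell, with a median log2 fold change of 0.46. The rises numbered 1 and 3 without replicate 1 or 2 of day 7 and 0 and 0 without replicate 1 or 2 of day 14, and 4 with libraries scaled to the same sum of RPKM. Sost (sclerostin) had 3.59 and 8.66 at day 7 and 6.85 and 6.75 at day 14 and overlapped between the days. Ppargc1a (PGC-1α) had 1 to 3 reads in each control library and was not tested, and Fos and Gapdh did not pass (adjusted p of 0.367 and 0.583). Of the 15 osteoblast lineage markers, which overlap the lists above, 2 rose (Bglap and Bglap2). Calls made up 5.88% of the osteoblast transcription factors and 7.69% of the phosphate and of the osteocyte list, beside 4.86% of all tested genes.

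**Figure D2:**
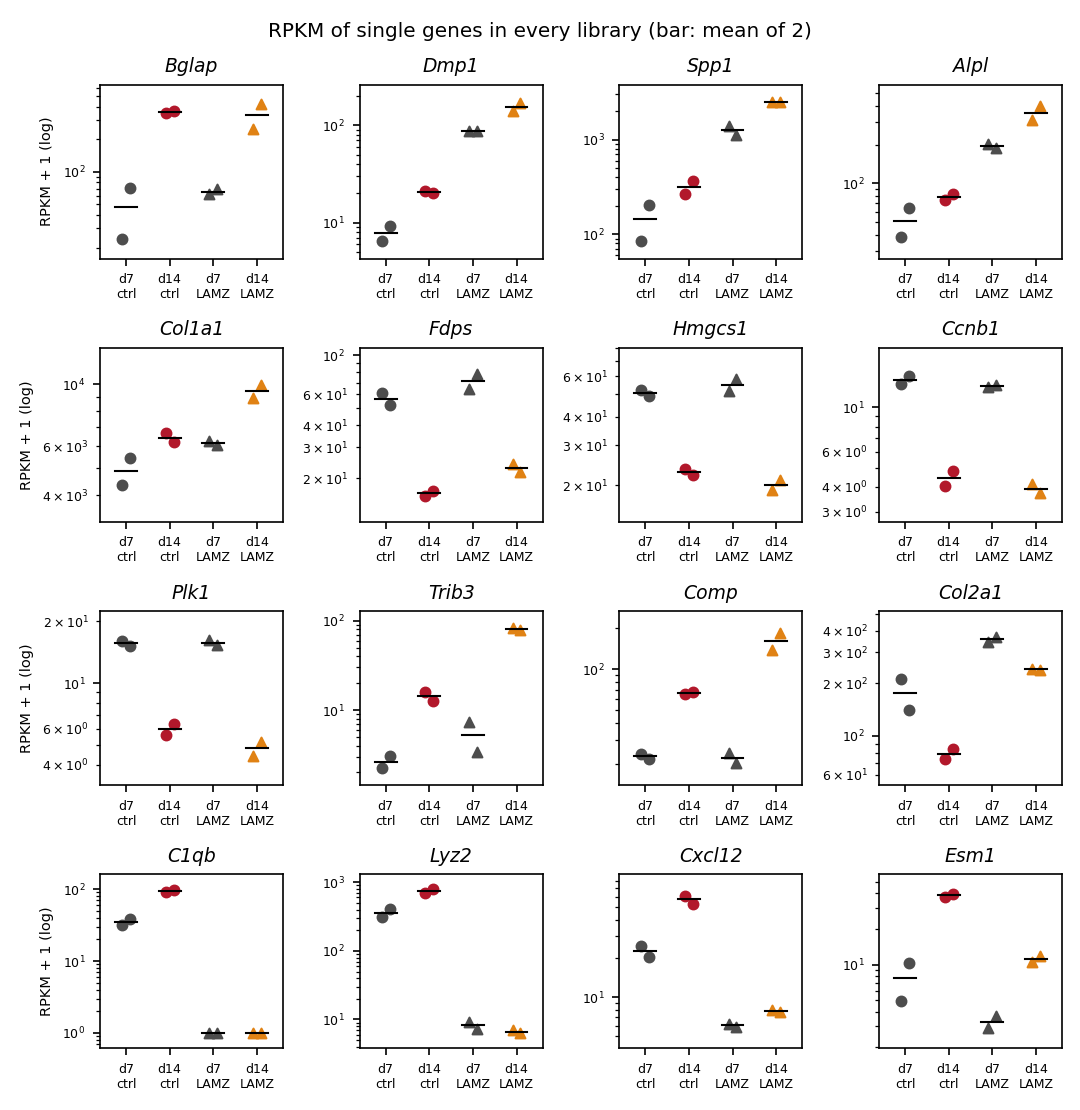
Each panel is 1 gene and each point 1 library, as RPKM + 1 on a log axis, with a bar at the mean of the 2 libraries (circles control, triangles LAMZ). In control Bglap, Dmp1, Trib3, Comp, C1qb, Lyz2, Cxcl12 and Esm1 are higher at day 14, Fdps, Hmgcs1, Ccnb1, Plk1 and Col2a1 are lower, and C1qb is at an RPKM of 0 in the 4 LAMZ libraries.

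The genes of cholesterol synthesis fell together. Of the list, 25 were tested, 0 rose and 20 fell, with a median log2 fold change of −0.98 beside −0.05 for all genes. Fdps, which makes farnesyl diphosphate, had 60.4 and 50.9 at day 7 and 14.9 and 15.9 at day 14 (−1.78 ± 0.14, adjusted p = 0.00273). Hmgcs1, which makes HMG-CoA at the head of the pathway, had 51.3 and 48.2 at day 7 and 22.6 and 21.1 at day 14 (−1.15 ± 0.12, adjusted p = 0.00583). Both genes had no overlap between the days. Mvd, Cyp51 and Idi1, enzymes further along, fell by 1.34, 1.31 and 1.17 on the log2 scale. Srebf2, the factor that drives the pathway, fell by 0.59. In the LAMZ course 23 of the list fell, with a median of −0.97. The falls in control numbered 11 and 19 without replicate 1 or 2 of day 7, 5 and 12 without replicate 1 or 2 of day 14, and 19 without any one LAMZ library. The start of Hmgcs1 (RefSeq, GRCm38.p6, chr13:119690101-119690400, plus strand), the most abundant gene of the list, is shown with the core CACCCCA of the sterol response element in capitals.
Hmgcs1: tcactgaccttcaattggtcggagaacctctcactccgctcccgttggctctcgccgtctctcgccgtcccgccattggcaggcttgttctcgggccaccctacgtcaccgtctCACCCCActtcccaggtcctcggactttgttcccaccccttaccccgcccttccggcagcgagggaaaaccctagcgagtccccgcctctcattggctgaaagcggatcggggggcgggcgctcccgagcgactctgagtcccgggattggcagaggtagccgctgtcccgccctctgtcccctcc
This core was in 3 of the 20 promoters of the list (15.0%) and in 7.6% of all 32851 promoters in the table.

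Many genes of cell division fell. Of the mitosis genes, 40 were tested, 0 rose and 23 fell, with a median log2 fold change of −0.86, and all 40 values were below 0. Ccnb1, the cyclin of mitotic entry, had 12 and 13.3 at day 7 and 3.05 and 3.78 at day 14 (−1.63 ± 0.13, adjusted p = 0.00273). Plk1, a mitotic kinase, had 15.1 and 14.2 at day 7 and 4.57 and 5.33 at day 14 (−1.39 ± 0.13, adjusted p = 0.00395). The kinase Aurka and the motor protein Kif20a fell by 1.44 and 1.38, and Cdc20, the activator of the anaphase ligase and most abundant of the list, by 1.07. Of the DNA replication genes, 39 were tested, 0 rose and 11 fell, with a median log2 fold change of −0.57. Mcm5, of the replicative helicase, had 11.2 and 12.7 at day 7 and 4.06 and 4.15 at day 14 (−1.34 ± 0.13, adjusted p = 0.00487), and Rrm2, Uhrf1 and Fen1 fell by 1.17, 1.16 and 1.14. Of the replication-dependent histones, 61 were tested, 0 rose and 24 fell, with a median log2 fold change of −0.84. Hist1h2ai had 33.7 and 22 at day 7 and 7.11 and 6.19 at day 14 (−1.89 ± 0.22, adjusted p = 0.00702), and Hist1h4f, Hist1h4k and Hist1h2bb fell by 1.70, 1.69 and 1.55, though reads can be shared between near copies of histone genes. The mitosis falls numbered 9 and 17 without replicate 1 or 2 of day 7, 7 and 15 without replicate 1 or 2 of day 14, and 13 to 15 without any one LAMZ library. The replication falls numbered 2 and 7 without replicate 1 or 2 of day 7, 2 and 5 without replicate 1 or 2 of day 14, and 5 without any one LAMZ library, and the histone falls 9 and 20 without replicate 1 or 2 of day 7, 2 and 9 without replicate 1 or 2 of day 14, and 13 to 15 without any one LAMZ library. The share called was 57.5% of the mitosis, 28.2% of the replication and 39.3% of the histone list, beside 4.86% of all tested genes. In bulk RNA, fewer cells of a kind and less RNA per cell cannot be told apart.

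The starts of Plk1 (chr7:122159185-122159484, plus strand) and Cdc20 (chr4:118437294-118437593, minus strand), both RefSeq in GRCm38.p6, are shown because mitotic genes often carry the CHR core TTTGAA and the CCAAT box, which are in capitals.
Plk1: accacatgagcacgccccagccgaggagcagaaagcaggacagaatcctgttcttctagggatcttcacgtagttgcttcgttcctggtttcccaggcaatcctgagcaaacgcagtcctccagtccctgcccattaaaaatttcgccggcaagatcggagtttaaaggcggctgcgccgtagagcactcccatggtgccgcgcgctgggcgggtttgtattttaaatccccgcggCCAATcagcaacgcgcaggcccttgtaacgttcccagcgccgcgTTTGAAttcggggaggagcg
Cdc20: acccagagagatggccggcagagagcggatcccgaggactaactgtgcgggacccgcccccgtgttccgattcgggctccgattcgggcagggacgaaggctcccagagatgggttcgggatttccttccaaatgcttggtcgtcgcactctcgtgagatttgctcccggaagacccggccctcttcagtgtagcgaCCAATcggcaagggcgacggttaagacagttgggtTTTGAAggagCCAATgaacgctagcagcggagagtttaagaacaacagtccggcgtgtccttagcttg
TTTGAA was in 28 of the 36 promoters of the list (77.8%) and in 17.9% of all 32851 promoters in the table, and CCAAT in 28 of the 36 promoters of the list (77.8%) and in 37.4% of all 32851 promoters in the table, counting both strands. The E2F core TTCCCGC was in 16 of the 40 promoters of the list (40.0%) and in 4.6% of all 32851 promoters in the table, for the list of DNA replication.

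**Figure D3:**
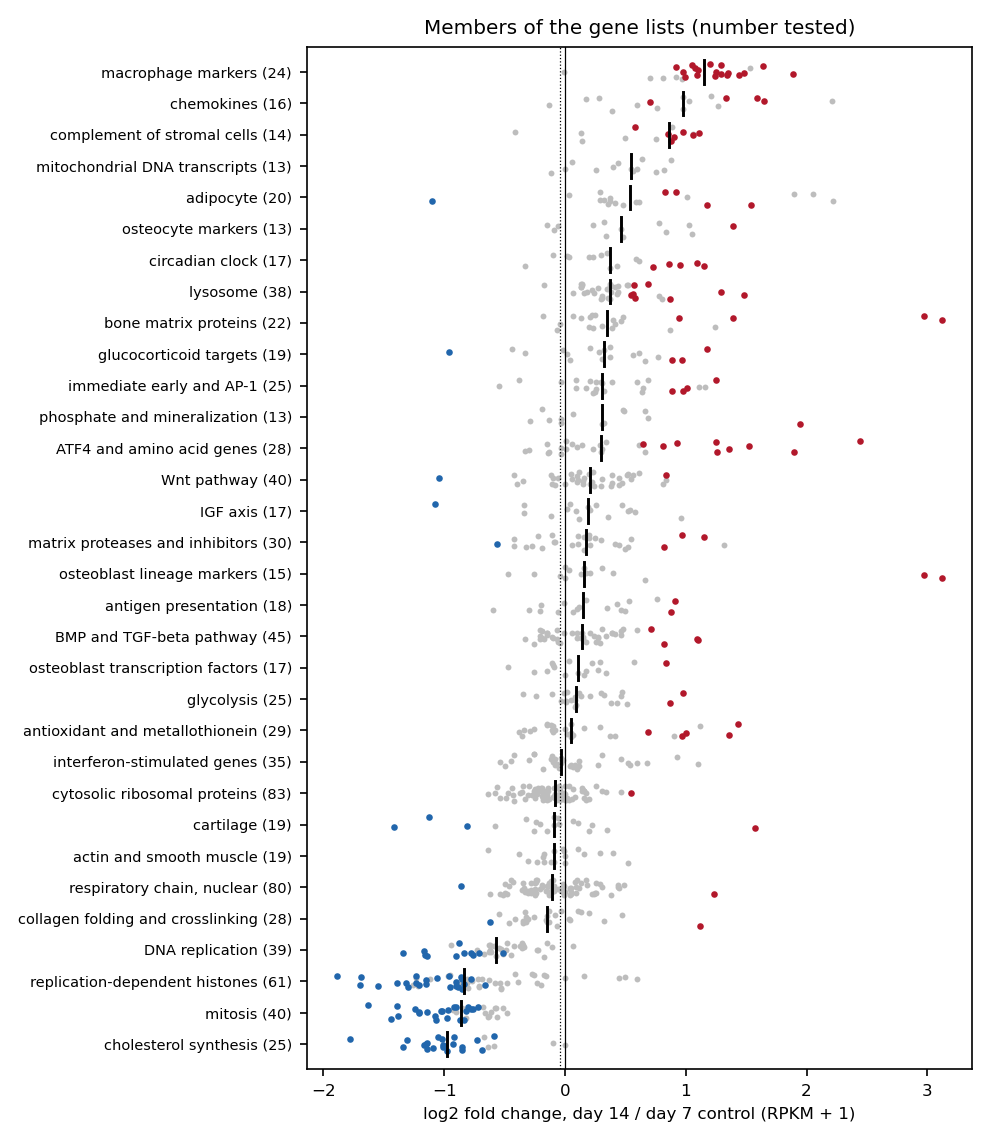
Each row is a gene list with 12 or more tested members and each point the log2 fold change of 1 member in control (x axis), red where it rose, blue where it fell and grey where it did not pass. Black bars are list medians and the dotted line is the median of all genes, with cholesterol synthesis lowest at −0.98 and macrophage markers highest at 1.15.

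Genes of the amino acid stress response rose in part. Of a list of ATF4 and amino acid genes, 28 were tested, 9 rose and 0 fell, with a median log2 fold change of 0.30 beside −0.05 for all genes. The values ran from −0.33 to 2.44, and 21 of the 28 were above 0. The share called was 32.1%, beside 4.86% of all tested genes. Trib3, a pseudokinase, had 1.25 and 2.04 at day 7 and 15.1 and 11.6 at day 14 (2.44 ± 0.33, adjusted p = 0.0109). Chac1, which degrades glutathione, had 2.27 and 4.23 at day 7 and 16.2 and 13 at day 14 (1.90 ± 0.27, adjusted p = 0.0121). Nupr1, a stress-induced chromatin protein, had 9.28 and 10.6 at day 7 and 29 and 31.8 at day 14 (1.52 ± 0.12, adjusted p = 0.00273). The days were apart for the 3 genes. The factors Atf5, Ddit3 and Atf3 rose by 1.36, 1.26 and 1.25, and Asns, which makes asparagine, by 0.65. In the LAMZ course 23 of the list rose, with a median of 1.35, and the test of the difference between the courses was passed by 6, all larger in LAMZ, among them Nupr1 (adjusted p = 0.0216), Atf4 (0.0369) and Atf5 (0.0369). The rises in control numbered 3 and 6 without replicate 1 or 2 of day 7, 2 and 2 without replicate 1 or 2 of day 14, and 5 to 7 without any one LAMZ library. The starts of Trib3 (chr2:152344011-152344310, minus strand) and Chac1 (chr2:119350992-119351291, plus strand), both RefSeq in GRCm38.p6 and the largest rises of the list, are shown with the ATF4 and C/EBP core TGATGNAA in capitals, on the other strand.
Trib3: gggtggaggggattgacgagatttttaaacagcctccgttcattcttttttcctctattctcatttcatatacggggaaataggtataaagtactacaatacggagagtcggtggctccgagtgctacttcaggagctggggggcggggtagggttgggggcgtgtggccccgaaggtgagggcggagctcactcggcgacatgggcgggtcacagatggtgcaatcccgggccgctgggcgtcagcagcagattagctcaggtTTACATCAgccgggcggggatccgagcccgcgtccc
Chac1: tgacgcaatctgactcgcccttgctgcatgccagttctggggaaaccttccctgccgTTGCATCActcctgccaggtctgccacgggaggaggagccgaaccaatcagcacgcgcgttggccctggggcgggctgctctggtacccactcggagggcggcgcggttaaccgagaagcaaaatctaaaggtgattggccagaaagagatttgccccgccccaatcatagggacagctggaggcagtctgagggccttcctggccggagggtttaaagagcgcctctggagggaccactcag
The core was in 11 of the 29 promoters of the list (37.9%) and in 4.0% of all 32851 promoters in the table.

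Genes of macrophages also rose. Of the macrophage markers, 24 were tested, 18 rose and 0 fell, with a median log2 fold change of 1.15 beside −0.05 for all genes. Their summed RPKM was 516 and 681 at day 7 and 1317 and 1324 at day 14, a ratio of 2.21, and 22 of 25 were at an RPKM of 1 or more in all 4 control libraries. In the LAMZ libraries the sum was 8.38 to 10.1, and 23 were under an RPKM of 1 in all 4. Genes that low in LAMZ entered the test through the control libraries alone. Their LAMZ values add little spread to the shared fit, so their p values can be too small. The share called, 75.0% beside 4.86% of all tested genes, carries the same limit. C1qb, of complement C1q, had 30.7 and 37.7 at day 7 and 91.2 and 97.4 at day 14 (1.44 ± 0.13, adjusted p = 0.0039). Lyz2, the lysozyme of myeloid cells, had 312 and 409 at day 7 and 694 and 789 at day 14 (1.05 ± 0.17, adjusted p = 0.0192). The CSF1 receptor Csf1r had 7.33 and 9.04 at day 7 and 16.8 and 17.3 at day 14 and C1qa 33.9 and 31.9 at day 7 and 74 and 59.1 at day 14, and the days did not overlap for the 4 genes. Clec4n, a lectin of myeloid cells, rose by 1.89, and Wfdc17, in no list, had 8.96 and 8.67 at day 7 and 40.5 and 37.8 at day 14 (2.03 ± 0.15, adjusted p = 0.00251). These markers go against the label of the control libraries as MC3T3-E1, a clonal osteoblastic line. The marker calls numbered 7 and 18 without replicate 1 or 2 of day 7, 1 and 7 without replicate 1 or 2 of day 14, and 12 to 17 without any one LAMZ library. The start of Ctss, cathepsin S (RefSeq, GRCm38.p6, chr3:95526536-95526835, plus strand), is shown with the core GAGGAAG of the myeloid factor PU.1 in capitals, on the other strand.
Ctss: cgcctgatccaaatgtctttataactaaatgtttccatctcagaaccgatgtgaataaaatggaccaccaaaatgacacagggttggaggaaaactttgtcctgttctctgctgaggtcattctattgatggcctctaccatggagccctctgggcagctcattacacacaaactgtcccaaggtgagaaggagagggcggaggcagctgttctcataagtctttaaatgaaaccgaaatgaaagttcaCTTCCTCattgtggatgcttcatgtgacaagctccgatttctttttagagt
The core was in 10 of the 22 promoters of the list (45.5%) and in 13.6% of all 32851 promoters in the table.

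Markers of other cells differed in level between lists. Summed RPKM in the control libraries was 100.9 to 124.9 for the osteoclast list and 79.4 to 87.9 for the pericyte list. Of 12 osteoclast markers, 5 were tested and 0 rose or fell, Acp5 and Ctsk overlapped between the days, and Calcr and Dcstamp had 0 to 3 reads in each control library. None of the T, B and natural killer cell, neutrophil and mast cell, or erythroid markers reached the level for testing, and Nkg7, Trbc2, Ly6g, Elane, Mcpt4, Tpsb2 and Hbb-bt were at 0 in the 4 control libraries, as were Cldn5 of endothelium, Myf5 of muscle and Krt14 and Krt8 of epithelium. Most members of these lists were above 0 in at least 1 control library. At 0 in all 4 were 2 of 12 T, B and natural killer cell, 4 of 12 neutrophil and mast cell and 2 of 7 erythroid markers. In replicate 1 of day 14, 2 of the T, B and natural killer cell markers reached an RPKM of 1. Of the endothelial, pericyte, skeletal muscle and epithelial markers 3, 7, 2 and 2 were tested and 0 passed. Of the Schwann and neural markers 2 were tested, and the tubulin Tubb3 fell, with 5.25 and 5.41 at day 7 and 1.4 and 1.07 at day 14 (−1.51 ± 0.16, adjusted p = 0.00611). Of the adipocyte genes, 20 were tested, 4 rose and 1 fell, with a median log2 fold change of 0.54. Apoe, an apolipoprotein that macrophages also make, had 39.5 and 39.9 at day 7 and 121 and 114 at day 14 (1.54 ± 0.20, adjusted p = 0.00967), Angptl4 and lipoprotein lipase Lpl rose by 1.18 and 0.92, and the fatty acid synthase Fasn fell by 1.10. The fat cell genes Fabp4 (5.33 and 1.29 at day 7 and 6.44 and 41.2 at day 14) and Adipoq (1.54 and 0 at day 7 and 2.43 and 11.7 at day 14) were highest in replicate 2 of day 14 and did not pass (adjusted p of 0.132 and 0.101), and Pparg, the adipogenic factor, did not pass (0.48 ± 0.16, adjusted p = 0.126). The adipocyte rises numbered 0 and 3 without replicate 1 or 2 of day 7, 2 and 0 without replicate 1 or 2 of day 14, and 3 without any one LAMZ library.

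**Figure D4:**
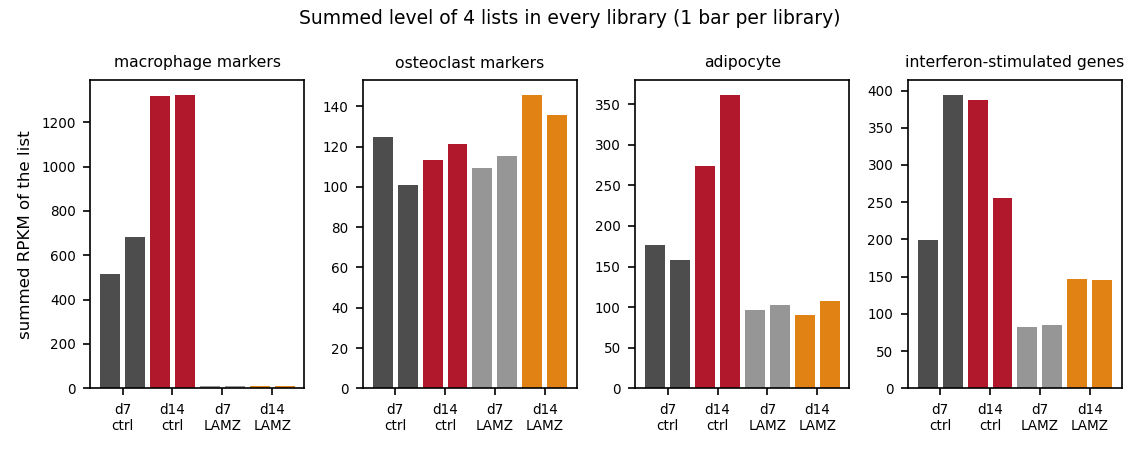
Each bar is the summed RPKM of a gene list in 1 library (y axis from 0), with 2 bars per group. The macrophage sum is 516 and 681 at day 7 and 1317 and 1324 at day 14 in control and at most 10.1 in LAMZ, the adipocyte sum is highest in replicate 2 of day 14 control, and the interferon-stimulated sum differs most between the replicates of day 7 control.

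Macrophage RNA was present beside other immune and lysosomal genes. Of the 308 genes that rose, 66 (21.4%) were under an RPKM of 1 in all 4 LAMZ libraries, compared with 5.45% of all tested genes and 1.33% of those that fell. Genes this low in LAMZ entered the test through the control libraries alone, and their small spread in LAMZ eases a call. These shares are therefore a description only, and the part of the macrophage RNA was not tested. Of the lysosome genes, 38 were tested, 8 rose and 0 fell, with a median log2 fold change of 0.37. Ctss had 14.6 and 24.9 at day 7 and 67.9 and 45 at day 14 (1.48 ± 0.26, adjusted p = 0.0219) and was at 0 in LAMZ, Cd68 rose by 1.29, and Ctsb, which LAMZ libraries also held, by 0.87. Of the complement genes, 14 were tested, 7 rose and 0 fell, with a median log2 fold change of 0.86. Serping1, the C1 inhibitor, had 31.4 and 29.9 at day 7 and 70.4 and 64.6 at day 14 (1.11 ± 0.13, adjusted p = 0.0075), and C1s1 and C3 rose by 1.06 and 0.90. Of the chemokines, 16 were tested, 4 rose and 0 fell, with a median log2 fold change of 0.98. Cxcl12, which holds blood progenitors in the marrow, had 23.9 and 19.5 at day 7 and 60.3 and 52 at day 14 (1.33 ± 0.14, adjusted p = 0.00553), Ccl9 rose by 0.70, and Ccl12 and Ccl3, both at 0 in LAMZ, by 1.65 and 1.59. The lysosome rises numbered 0 and 5 without replicate 1 or 2 of day 7, 0 and 1 without replicate 1 or 2 of day 14, and 1 to 3 without any one LAMZ library. They numbered 24 with libraries scaled to the same sum of RPKM and 14 with quantile normalization. The complement rises numbered 4 and 5 without replicate 1 or 2 of day 7, 1 and 2 without replicate 1 or 2 of day 14, and 4 without any one LAMZ library, and the chemokine rises 3 and 6 without replicate 1 or 2 of day 7, 1 and 3 without replicate 1 or 2 of day 14, and 2 without any one LAMZ library. Of the antigen presentation genes, 18 were tested, 2 rose and 0 fell, with a median log2 fold change of 0.15 (H2-D1 by 0.91 and H2-DMb1 by 0.88), and H2-DMb1 was still called without replicate 2 of day 14, while H2-D1 was not called when any one of the 8 libraries was left out. Of the interferon-stimulated genes, 35 were tested, 0 rose and 0 fell, with a median log2 fold change of −0.03. The median was −0.42 without replicate 1 of day 7 and 0.51 with 3 rises without replicate 2. Isg15 had 10.5 and 60.7 at day 7 and 28.3 and 10.5 at day 14, with replicate 2 of day 7 the highest.

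Cartilage genes moved both ways. Of the list, 19 were tested, 1 rose and 3 fell, with a median log2 fold change of −0.09. Col2a1, the collagen of cartilage, had 211 and 139 at day 7 and 72.8 and 82.9 at day 14 (−1.13 ± 0.19, adjusted p = 0.0196), and Col9a3 and the link protein Hapln1 fell by 1.42 and 0.81. Comp, a matrix protein of cartilage and tendon, had 22.4 and 20.8 at day 7 and 65 and 67.1 at day 14 (1.57 ± 0.16, adjusted p = 0.00553). The cartilage falls numbered 1 and 2 without replicate 1 or 2 of day 7, 0 and 0 without replicate 1 or 2 of day 14, and 1 without any one LAMZ library. Of the matrix proteases and inhibitors, 30 were tested, 3 rose and 1 fell, with a median log2 fold change of 0.17: Mmp13, a collagenase, rose by 1.15, Fap by 0.97 and Plau by 0.82, and Adamts4 fell by 0.56. The protease rises numbered 0 and 2 without replicate 1 or 2 of day 7, 1 and 1 without replicate 1 or 2 of day 14, and 1 to 2 without any one LAMZ library, and the fall of Adamts4 was not called when any one of the 8 libraries was left out. Of the collagen folding and crosslinking genes, 28 were tested, 1 rose and 1 fell, with a median log2 fold change of −0.15 (0.10 when libraries are scaled to the same sum). The lysyl oxidase Loxl4 rose by 1.12 and the prolyl hydroxylase P3h1 fell by 0.62, and the fall was not called when any one of the 8 libraries was left out, nor the rise except without replicate 2 of day 7. Calls made up 21.1% of the cartilage, 13.3% of the protease and 7.14% of the collagen folding list, beside 4.86% of all tested genes.

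Of the BMP and TGF-beta pathway, 45 were tested, 4 rose and 0 fell, with a median log2 fold change of 0.14. The ligands Tgfb1 (2.14 and 2.44 at day 7 and 6.5 and 5.61 at day 14), Gdf10 and Bmp3 rose by 1.10, 1.09 and 0.82, and the antagonist Chrdl1 by 0.71. The rises numbered 1 and 4 without replicate 1 or 2 of day 7, 0 and 1 without replicate 1 or 2 of day 14, and 2 to 3 without any one LAMZ library. Of the Wnt pathway, 40 were tested, 1 rose and 1 fell, with a median log2 fold change of 0.21, the receptor Fzd5 rising by 0.84 and the ligand Wnt7b falling by 1.04, with 0 calls when any one control library was left out, and the fall was not called without any one LAMZ library either. Of the IGF axis, 17 were tested, 0 rose and 1 fell, with a median log2 fold change of 0.19: the binding protein Igfbp3 had 68.5 and 44.2 at day 7 and 26.6 and 24.5 at day 14 (−1.08 ± 0.21, adjusted p = 0.0331), and its fall was called without replicate 2 of day 7 but not without any one of the other 7 libraries. Of the glucocorticoid targets, 19 were tested, 3 rose and 1 fell, with a median log2 fold change of 0.32 (Angptl4, Mt1 and Dusp1 up, Cdkn1c down by 0.96). Of the immediate early and AP-1 genes, 25 were tested, 4 rose and 0 fell, with a median log2 fold change of 0.31: Atf3, Egr1 (1.01), Ctgf (0.98) and Dusp1 (0.89). The rises of the glucocorticoid targets numbered 1 and 3 without replicate 1 or 2 of day 7, 1 and 0 without replicate 1 or 2 of day 14, and 2 without any one LAMZ library, and those of the immediate early genes 2 and 3 without replicate 1 or 2 of day 7, 0 and 0 without replicate 1 or 2 of day 14, and 2 to 3 without any one LAMZ library. Calls made up 8.89% of the BMP and TGF-beta, 5.0% of the Wnt and 5.88% of the IGF list, beside 4.86% of all tested genes. For the glucocorticoid and immediate early lists the shares were 21.1% and 16.0%.

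Of the circadian clock genes, 17 were tested, 5 rose and 0 fell, with a median log2 fold change of 0.37. Dbp, a clock output factor, had 3.37 and 4.44 at day 7 and 11.2 and 8.57 at day 14 (1.15 ± 0.16, adjusted p = 0.0123), and Nr1d1, Bhlhe41 and Per3 rose by 1.09, 0.95 and 0.86. The clock rises numbered 0 and 5 without replicate 1 or 2 of day 7, 0 and 1 without replicate 1 or 2 of day 14, and 4 without any one LAMZ library. Of the antioxidant and metallothionein genes, 29 were tested, 5 rose and 0 fell, with a median log2 fold change of 0.05. The selenium carrier Selenop had 26.8 and 34.5 at day 7 and 82.5 and 84.5 at day 14 (1.43 ± 0.19, adjusted p = 0.0109), the secreted peroxidase Gpx3 had 122 and 99.5 at day 7 and 263 and 308 at day 14 (1.36 ± 0.15, adjusted p = 0.00611), and Gstm1 and Mt1 rose by 1.00 and 0.97. The antioxidant rises numbered 2 and 5 without replicate 1 or 2 of day 7, 1 and 1 without replicate 1 or 2 of day 14, and 3 without any one LAMZ library. The metal response core TGCNCNC was in 17 of the 33 promoters of the list (51.5%) and in 51.0% of all 32851 promoters in the table. Of the glycolysis genes, 25 were tested, 2 rose and 0 fell, with a median log2 fold change of 0.09, the glucose carrier Slc2a1 by 0.98 and Bnip3, a mitophagy receptor, by 0.87, and these numbered 0 and 2 without replicate 1 or 2 of day 7 and 0 and 0 without replicate 1 or 2 of day 14. Of the cytosolic ribosomal proteins, 83 were tested, 1 rose and 0 fell, with a median log2 fold change of −0.08 (Rpl37a, 0.55), and the call was lost when any one of the 8 libraries was left out. Of the nuclear respiratory chain genes, 80 were tested, 1 rose and 1 fell, with a median log2 fold change of −0.11 (Cox4i2 up by 1.23, Atp5l down by 0.86). The rise was lost without replicate 1 of day 7 or either day 14 library, and the fall without any one of the 8 libraries except replicate 1 of day 7. Of the mitochondrial DNA transcripts, 13 were tested, 0 rose and 0 fell, with a median log2 fold change of 0.55. With another scaling more of them rose, 4 with the same sum of RPKM, 3 with quantile normalization and 2 with median centring. Of the actin and smooth muscle genes, 19 were tested, 0 rose and 0 fell, with a median log2 fold change of −0.09. Calls made up 8.0% of the glycolysis, 1.2% of the ribosomal and 2.5% of the respiratory chain list, beside 4.86% of all tested genes. For the clock and antioxidant lists the shares were 29.4% and 17.2%. When libraries are scaled to the same sum, the medians of the cartilage, ribosomal, respiratory chain, actin and interferon-stimulated lists turn positive. This scaling also moved the number of rises, to 9 for the bone matrix list, 10 for the proteases, 8 for the adipocyte genes, 6 for antigen presentation, 5 for the Wnt pathway, 6 for the IGF axis, 3 for the osteoblast factors, 3 for the phosphate list and 4 for the respiratory chain.

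Outside the lists, Esm1, a proteoglycan of endothelial cells, had 3.92 and 9.36 at day 7 and 36.5 and 38.1 at day 14 (2.42 ± 0.30, adjusted p = 0.0087), and Hp (haptoglobin) had 1.49 and 1.26 at day 7 and 8.46 and 15.8 at day 14 (2.41 ± 0.25, adjusted p = 0.00589). Crabp1, which binds retinoic acid, had 114 and 58.3 at day 7 and 19.3 and 27.9 at day 14 (−1.77 ± 0.30, adjusted p = 0.0213). Snhg1, a host of small nucleolar RNAs, had 278 and 272 at day 7 and 84.4 and 100.1 at day 14 (−1.57 ± 0.15, adjusted p = 0.00487). The days did not overlap for these genes, which was a condition of naming them and adds no support. Of the genes described as risen or fallen, Adamts4, Atf5, C3, Cdc20, Col9a3, Csf1r, Ctsb, Ctss, Cyp51, Dbp, Dusp1, Esm1, Fen1, Kif20a, Nr1d1, Omd, Per3, Selenop, Slc2a1, Snhg1, Srebf2 and Wnt7b overlap another annotated gene, and whether reads were counted by strand is not given in the sources used here. Cox8b, Gstp2, Mirlet7b and Rprl2 rose from 0 to 3 reads per library at day 7, and the small RNAs Mir758, Mir666 and n-TSaga9 fell from 2 to 22 reads, so no fold is given for them.

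The LAMZ course shares no library with the control course. Both were judged by the same spread of each gene, so their calls are not independent. The LAMZ course had 638 rises (5.10%) and 1159 falls (9.26%). Of the genes that rose in control, 117 rose there too (38% of the control and 18.3% of the LAMZ rises) and 8 fell. Of those that fell, 197 fell there too (65.7% and 17%) and 1 rose. The LAMZ calls numbered 1797 in all (14.4%), and 607 and 488 without replicate 1 or 2 of day 7 LAMZ and 811 and 498 without replicate 1 or 2 of day 14 LAMZ. The difference between the courses was called for 78 genes (0.623%), and for 0 to 21 when any one of the 8 libraries was left out, with 0 without replicate 2 of day 14 control, so the differences below rest on all 8 libraries. Thbs4, a matricellular protein, had 2.98 and 3.07 at day 7 and 12.3 and 10.3 at day 14 in control (1.60 ± 0.14, adjusted p = 0.00299) and 4.7 and 4.67 at day 7 and 3.65 and 2.93 at day 14 in LAMZ (adjusted p of the difference 0.0198). Omd, which rose in control, had 27.5 and 21.2 at day 7 and 11.4 and 12.7 at day 14 in LAMZ (0.0243), and Chrdl1 and Bnip3 differed likewise (0.0257 and 0.0287). Of the macrophage genes, C1qb, Clec4n and Wfdc17 differed (0.0287, 0.0369 and 0.0257), all near 0 in LAMZ. Genes near 0 in LAMZ can show no course there. Their differences mostly restate the rise in control, and their p values can be too small. Tubb3 fell in control and had 5.27 and 7.4 at day 7 and 7.25 and 7.89 at day 14 in LAMZ (0.0324). Of the genes that did not pass in control, Cdsn, of the cornified skin, had 1.58 and 2.59 at day 7 and 1.46 and 1.57 at day 14 in control and 0.613 and 1.15 at day 7 and 72.5 and 45.2 at day 14 in LAMZ (0.00587), and Avil, Car6, Gpr84 and Slc6a9 also had a larger change in LAMZ. The difference was called for Mir758 too (0.0198), which had 3 and 2 reads at day 7 in control and 0 in the other 6 libraries. In the other direction were Hist1h2bp, the Wnt antagonist Sfrp1 (111 and 78.7 at day 7 and 111 and 107 at day 14 in control and 9.92 and 11.9 at day 7 and 1.65 and 2.3 at day 14 in LAMZ, 0.0268), Sgms2 and Ndnf.

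**Figure D5:**
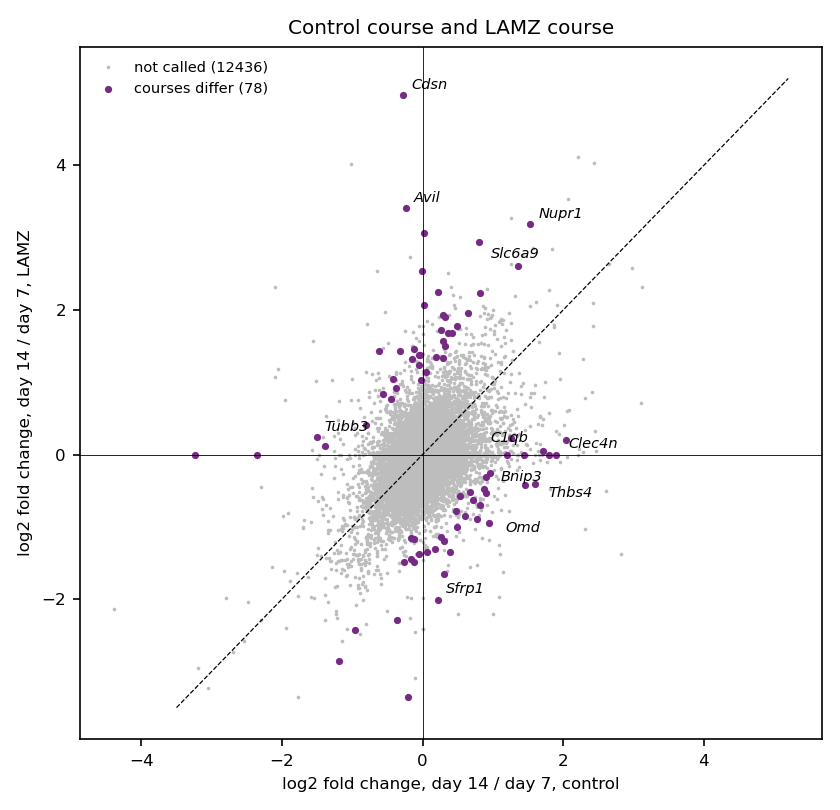
Each point is 1 of 12514 genes, placed by its log2 fold change from day 7 to day 14 in control (x axis) and in LAMZ (y axis), with a dashed line of equal change. The 78 genes whose courses differ are purple, among them Cdsn and Nupr1 above the line and Thbs4, Omd, C1qb and Sfrp1 below it.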

How the data were processed

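Total RNA of the 8 libraries was sequenced on an Ion Proton and analysed in CLC Genomics Workbench (version not given in the sources used here), with build mm10 named in the submitters' processing notes. The authors deposited RPKM per gene for each library, scaled within the library, so differences in RNA composition between libraries remain in the values. The steps of the values gave back 3463300 to 5834320 mapped reads per library, with 97.2% to 98.2% of the values checked within 0.05 of a whole read. Because they are RPKM, no count model was used.

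Libraries were grouped by their labels. The value column of day 7 LAMZ replicate 1 does not name LAMZ, as those of the other libraries do, and was assigned by the sample its deposit belongs to. Genes that reached an RPKM of 1 in 2 or more of the 8 libraries were fitted on log2(RPKM + 1) by limma 3.58.1 (R 4.3.3, two-sided, variance trend, Benjamini-Hochberg adjustment over all tested genes, 4 residual degrees of freedom), with contrasts for the control course, the LAMZ course and their difference. The fit was tested on simulated data, where more of the calls were false than the threshold allows and many of the smaller changes were missed. The simulation gave control and LAMZ libraries the same spread and held no genes absent from LAMZ alone. It therefore does not show how the larger spread in control affects the calls. The members and the gene lists were chosen with earlier results of these data known, so lists are described by counts and medians. Genes named are the 12 largest rises and falls with an annotated symbol, a fixed set of bone, macrophage and control genes, up to 4 called members and the most abundant member of each list, and the 6 largest differences between the courses in each direction. The 12 largest rises and falls were taken only from genes whose days did not overlap. For genes named by this alone, non-overlap is no finding. Ddit3, Asns, Srebf2, Fabp4, Adipoq, Isg15, C1qb, Tubb3, Rn7s1, Calcr, Dcstamp, Egln3, Car9, Scd2, Snhg7 and the markers given as at 0 (Nkg7, Trbc2, Ly6g, Elane, Mcpt4, Tpsb2, Hbb-bt, Cldn5, Myf5, Krt14 and Krt8) fell outside this rule and were chosen after their values were seen. Several of the most abundant members are not described, and a few genes that the rule selects are not reported here. Promoters were RefSeq windows of GRCm38.p6. Alternatives were other pseudocounts, filters, scalings, a replicate block, the control libraries by themselves and each library left out.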

Additional observations from a re-analysis of the deposited data

Results flagged for a closer look

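The change from day 7 to day 14 differed between LAMZ and control for 78 genes by limma's test of the difference itself. Of the genes named above, the log2 fold change in LAMZ minus that in control was above 0 for Cdsn (5.24), Avil (3.65), Car6 (3.04), Gpr84 (2.55), Slc6a9 (2.14), Tubb3 (1.75), Nupr1 (1.67), Asns (1.31), Atf5 (1.25) and Atf4 (1.04). It was below 0 for Hist1h2bp (−3.15), Sfrp1 (−2.22), Thbs4 (−2.02), Sgms2 (−1.96), Ndnf (−1.92), Clec4n (−1.89), Omd (−1.89), Wfdc17 (−1.83), C1qb (−1.44), Bnip3 (−1.35) and Chrdl1 (−1.34). C1qb, Clec4n and Wfdc17 were near 0 in the LAMZ libraries at both days. Their differences mostly restate the rise in control, and their p values can be too small. Mir758, with 3 and 2 reads at day 7 in control and 0 in the other 6 libraries, was called for the difference as well (limma adjusted p = 0.0198), and no fold is given for it.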

How the results depend on the processing

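The 608 calls of the control course became 354 with no filter on low values, 1135 with libraries scaled to the same sum, and 69 to 453 with single libraries left out. In limma the control libraries by themselves gave 0 calls (2184 genes at an unadjusted p under 0.05), and 0 with the replicate number as a block (1806 genes). The LAMZ course had 488 to 1890 calls with single libraries left out. The 78 calls for the difference between the courses became 34 with a pseudocount of 0.1, 166 with 5, 6 with no filter, 133 with an RPKM of at least 5, 30 without the variance trend, and 0 to 21 with single libraries left out. Without replicate 2 of day 14 control the count was 0 in limma, with 1699 genes at an unadjusted p under 0.05. The causes were not tested.

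The replicate number as a block in the fit of 8 libraries gave 432 calls in the control course and 17 for the difference. The deviations of the same-numbered control libraries had a correlation of 0.062 over genes. A single value of this kind cannot tell whether same-numbered libraries shared a culture or a batch.

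The medians of these 5 lists (bone matrix, mitosis, ATF4, cholesterol synthesis and macrophage markers) kept their sign under every setting run. With a pseudocount of 0.1 or 5 the median of the mitosis list was −1.08 or −0.51, of the ATF4 list 0.39 or 0.17 and of cholesterol synthesis −1.14 or −0.65. With the same sum it was 0.56 for bone matrix, 0.52 for ATF4 and −0.77 for cholesterol. For ATF4 it was 0.32 after median centring and 0.33 after quantile normalization. With single libraries left out the medians were −1.03 to −0.68 for mitosis, 0.22 to 0.35 for ATF4, 0.26 to 0.37 for bone matrix, −0.99 to −0.91 for cholesterol and 0.97 to 1.3 for macrophage markers.

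Control fold changes that turned in sign were all of genes that had not passed. With single libraries left out they ran over these log2 ranges: Acp5 −0.63 to 0.14, Car6 −0.20 to 0.25, Ctsk −0.09 to 0.23, Gapdh −0.07 to 0.70, Gpr84 −0.19 to 0.17, Hist1h2bp −0.70 to 0.29, Ibsp −0.04 to 0.30, Isg15 −1.75 to 0.67, Phospho1 −0.15 to 0.09, Sfrp1 −0.03 to 0.47, Sgms2 −0.07 to 0.68, Sost −0.31 to 0.76 and Sp7 −0.11 to 0.44. Under another scaling or pseudocount they were Car6 −0.04 (quantile normalization), Col1a2 −0.07 (quantile normalization), Gpr84 0.02 (pseudocount of 0.1), Gpr84 0.07 (same sum of RPKM), Gpr84 0.02 (median centring), Hist1h2bp 0.04 (same sum of RPKM), Phospho1 0.22 (same sum of RPKM) and Phospho1 0.06 (quantile normalization). The causes were not tested. Of the genes named in the report with a fold change, 52 lost their call without replicate 1 of day 7 control, 20 without replicate 2, 66 without replicate 1 of day 14 control and 58 without replicate 2, and 25 to 27 without any one LAMZ library. In the fit of all 8 libraries 94 of these genes had been called, and all 94 lost their call with the control libraries by themselves. With 2 libraries per group and few reads on low genes, a gene that missed the threshold is not shown to be unchanged.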

Other observations

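The following 3 lists were written after values of these genes had been seen, so their counts are a description only. The share called was 40.9% of the hypoxia, 42.9% of the fatty acid and 12.5% of the snoRNA host list, beside 4.86% of all tested genes. Of the hypoxia-responsive genes, 22 were tested, 9 rose and 0 fell, with a median log2 fold change of 0.57. Egln3, a prolyl hydroxylase of the oxygen-sensing pathway, had RPKM of 6.08 and 9.65 at day 7 and 22.3 and 29.4 at day 14 (1.62 ± 0.21, adjusted p = 0.00967), and the carbonic anhydrase Car9 had 5.18 and 11.4 at day 7 and 24.9 and 23.5 at day 14 (1.53 ± 0.28, adjusted p = 0.0278). The days did not overlap for either gene. In the LAMZ course 4 of this list rose and 4 fell. The rises in control numbered 3 and 10 without replicate 1 or 2 of day 7, 3 and 1 without replicate 1 or 2 of day 14, and 6 without any one LAMZ library. Of the fatty acid synthesis genes, 14 were tested, 0 rose and 6 fell, with a median log2 fold change of −0.52. The falls numbered 3 and 5 without replicate 1 or 2 of day 7, 2 and 3 without replicate 1 or 2 of day 14, and 3 without any one LAMZ library. Scd2, a desaturase, had 138 and 149 at day 7 and 68.7 and 69.6 at day 14 (−1.04 ± 0.11, adjusted p = 0.00553). Of the snoRNA host genes, 16 were tested, 0 rose and 2 fell, with a median log2 fold change of −0.44, the falls being of Snhg1 and Snhg7, the latter with 57.2 and 35.3 at day 7 and 10.7 and 14.3 at day 14 (−1.78 ± 0.26, adjusted p = 0.0137). The falls of this list numbered 1 and 5 without replicate 1 or 2 of day 7 and 1 and 1 without replicate 1 or 2 of day 14.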
